A study of Mus musculus with 4 samples.

Results

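Cells set, copy and erase DNA methylation with a small set of enzymes, and 8 of their genes were read here in Neuro-2a cells, a mouse neuroblastoma line, after exposure to the pyrethroid insecticide deltamethrin. The 8 genes were the DNA methyltransferases Dnmt1, Dnmt3a and Dnmt3b, the UHRF proteins Uhrf1 and Uhrf2, and the TET dioxygenases Tet1, Tet2 and Tet3. They were chosen by gene symbol in the array platform's annotation. All 8 were found, each with 1 probe set, among 19505 named genes and 22206 probe sets. Cells of the line (IFO50081, from Albino strain A mice) received 30 µM deltamethrin for 24 h (2 arrays), or its vehicle, 0.1% DMSO, for the same time (2 arrays). Total RNA was read on Affymetrix Clariom S Mouse arrays. The deposited values are log2 RMA values, in which a difference of 1 is a 2-fold difference. Both groups are 1 tumour-derived line. Separate cultures are not stated for the 2 arrays of a group, so the p-values reflect a spread between arrays that may be technical.

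DNMT1 restores methylation on the new strand after replication, and UHRF1 leads it there by binding hemimethylated CpG sites and ubiquitinating histone H3. DNMT3A and DNMT3B set new methylation. TET enzymes oxidise methylated cytosine, which leads to its loss through DNA repair or through replication, and in neurons TET activity is known for the high level of hydroxymethylcytosine. UHRF1 is known as a gene of dividing cells, and its expression follows the cell cycle.

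The largest difference among the 8 genes was that of Uhrf1, which was lower with deltamethrin by an amount that did not pass the test over all probe sets. Uhrf1 read 13.06 and 13.17 on the deltamethrin arrays, against 13.99 and 14.06 on the vehicle arrays. Both deltamethrin arrays lay below both vehicle arrays, with a gap of 0.82 between the nearest ones. The means were 13.12 ± 0.08 with deltamethrin and 14.03 ± 0.05 with vehicle (SD, n = 2 each). The log2 fold change in limma was -0.91 ± 0.17 (SE), with an unadjusted p of 0.00119 and an adjusted p of 0.106 (Benjamini-Hochberg over all probe sets). On a linear scale Uhrf1 stood at 53.2% of its vehicle level, with a 95% confidence interval of 40.4% to 70.1%. Only 123 of all probe sets had a lower fold change. The adjusted p of Uhrf1 depended on the fit and on the probe sets tested. It was 0.00262 when the variance was allowed to follow the level (a mean-variance trend) and 0.0386 when dim probe sets were left out. Without limma's moderation it was 0.367, and with the replicate number as a block it was 0.248.

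No member was called in limma at an adjusted p below 0.05 (0 of 8, with 0.432% of all probe sets called, 0.356% higher and 0.0766% lower). At an unadjusted p below 0.05 there was 1 member of 8, where 13.7% of all probe sets were. The groups did not overlap for 2 of the 8, both lower, where they did not for 43.9% of all probe sets (23.5% lower). With a mean-variance trend 1 of 8 fell, Uhrf1, against 3.63% of probe sets called (1.38% lower). Of the probe sets above the median level, where 7 of the 8 members lay, 7.06% were called with that trend. Without dim probe sets 1 of the 7 members kept was called, again Uhrf1, against 2.34%. Estimates were below 0 for 7 of the 8 members, and for 52.9% of all probe sets. The median of the 8 was -0.17, that of all probe sets -0.02. The share of members past an unadjusted p and the share that did not overlap were thus near the background, and are no result about the 8 genes as a group.

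**Figure D1:**
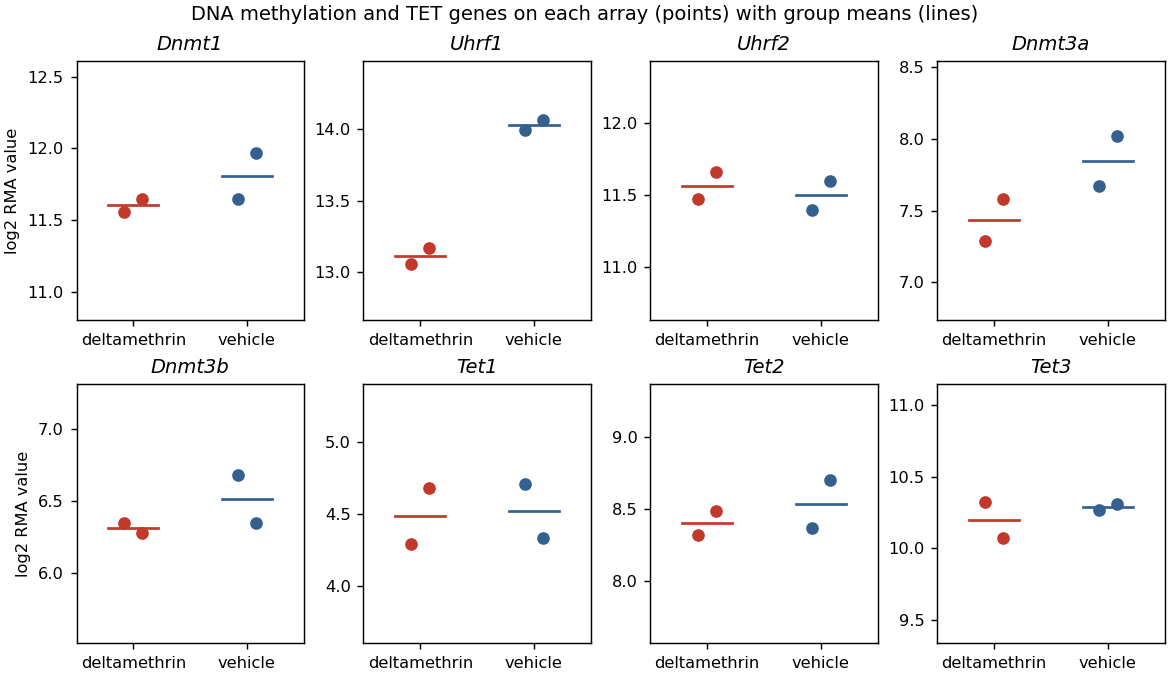
Log2 RMA values of the 8 genes on each array (points, vertical axis, each panel spanning the same range) with the group means (lines), deltamethrin left and vehicle right, 2 arrays each. The groups stand apart for Uhrf1 and, narrowly, for Dnmt3a, while those of the other 6 genes touch or overlap.

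Uhrf2, the paralogue of Uhrf1, does not replace it in keeping methylation in mouse cells. Its values were 11.47 and 11.66 on the deltamethrin arrays, against 11.40 and 11.60 on the vehicle arrays. The groups overlapped and the log2 fold change was 0.065 ± 0.18 (adjusted p = 0.914). Its 95% confidence interval ran from 77.7% to 141% of the vehicle level. The difference between the changes of Uhrf1 and Uhrf2 was tested on the arrays themselves. Within an array, Uhrf1 exceeded Uhrf2 by 1.59 and 1.51 with deltamethrin, against 2.59 and 2.46 with vehicle. The change of Uhrf1 was thus lower than that of Uhrf2 by 0.975 on the log2 scale, with no overlap between groups. The exact two-sided permutation test gave p = 0.333, which is the smallest p that 2 arrays against 2 can give.

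To show the DNA from which this pair of paralogues is transcribed, the 120 bases before each start in RefSeq (GRCm38.p6) are given 5′ to 3′, with CpG sites, the substrate of these enzymes, in capitals. Uhrf1 has 2 starts on chromosome 17 (chr17:56303217-56303336 and chr17:56304193-56304312, plus strand), and Uhrf2 has 1 on chromosome 19 (chr19:30030393-30030512, plus strand).
Uhrf1, start 1: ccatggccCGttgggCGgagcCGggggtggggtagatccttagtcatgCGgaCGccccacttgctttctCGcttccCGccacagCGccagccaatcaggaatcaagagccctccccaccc
Uhrf1, start 2: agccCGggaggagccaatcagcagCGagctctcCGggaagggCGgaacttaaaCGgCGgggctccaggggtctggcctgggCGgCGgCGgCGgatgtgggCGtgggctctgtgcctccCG
Uhrf2: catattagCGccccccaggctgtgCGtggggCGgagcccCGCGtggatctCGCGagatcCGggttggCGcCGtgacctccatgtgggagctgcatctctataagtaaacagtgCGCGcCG

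The stretches hold 8 and 12 CpG sites for Uhrf1 and 13 for Uhrf2. Promoters of 300 bases (250 before the start, 50 after) were matched for all 8 genes, in 13 entries. The 13 entries held 2 to 57 CpG sites, and 12 of them held more than the median of 7 over 32851 mouse promoters. The letters TTTCCCGC (an E2F-type site, searched on both strands) were in 1.07% of all promoters and in none of the 13 entries. The letters TTTGGCGC, another E2F-type site, were in 0.514% of all promoters and in 1 entry, of Dnmt1. This match lies 33 bases after that start (chr9:20952574-20952600, minus strand, match in capitals).
Dnmt1: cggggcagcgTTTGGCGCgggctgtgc
The E-box CACGTG was in 7.15% of all promoters and in 1 entry, of Dnmt3a. A match describes the letters only. Other forms of the E2F-type site were not searched over all promoters. One of them, TTTCGCGC, occurs in the entry of Uhrf1 start 2, outside the stretch printed above. It also occurs, on the other strand, in the Dnmt1 entry that holds TTTGGCGC.

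Dnmt1 itself, the maintenance methyltransferase, read 11.56 and 11.65 with deltamethrin, against 11.65 and 11.97 with vehicle. The higher deltamethrin array equalled the lower vehicle array. The log2 fold change was -0.205 ± 0.19 (adjusted p = 0.692), and the interval of 63.6% to 118% of the vehicle level includes no change. Without vehicle replicate 2 the estimate was -0.045, and without vehicle replicate 1 it was -0.365.

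Among the enzymes of new methylation, Dnmt3a read 7.29 and 7.58 with deltamethrin, against 7.67 and 8.02 with vehicle. The groups did not overlap, but the gap of 0.09 between the nearest arrays was smaller than the spread within either group (SD 0.21 with deltamethrin and 0.25 with vehicle). The log2 fold change was -0.41 ± 0.21 (unadjusted p = 0.0893, adjusted p = 0.442). Leaving out 1 array moved it between -0.585 (without vehicle replicate 1) and -0.235 (without vehicle replicate 2). Dnmt3b, which is best known from early embryos, read 6.35 and 6.28 with deltamethrin, against 6.68 and 6.35 with vehicle. These groups touched at 6.35 and the log2 fold change was -0.20 ± 0.19 (adjusted p = 0.700), with estimates of -0.365 to -0.035 when 1 array was left out. The change of Dnmt1 exceeded that of Dnmt3a by 0.205 on the log2 scale, with within-array differences of 4.27 and 4.07 with deltamethrin, against 3.98 and 3.95 with vehicle. These did not overlap, and the exact permutation p of 0.333 is again the smallest that can be had, so the test cannot tell whether the 2 genes differ. The changes of Dnmt3a and Dnmt3b differed by -0.21 (exact permutation p = 0.667), with overlapping groups and a sign that turned when 1 array was left out (-0.55 without vehicle replicate 1 and 0.13 without vehicle replicate 2).

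The TET genes had the smallest differences beside Uhrf2. Tet3 read 10.32 and 10.07 with deltamethrin, against 10.27 and 10.31 with vehicle, and its log2 fold change was -0.095 ± 0.18 (adjusted p = 0.864). Tet2 read 8.32 and 8.49 with deltamethrin, against 8.37 and 8.70 with vehicle, a log2 fold change of -0.13 ± 0.19 (adjusted p = 0.824). The groups overlapped for both genes. Tet1, an enzyme with a CXXC domain that is abundant in embryonic stem cells, read 4.29 and 4.68 with deltamethrin, against 4.71 and 4.33 with vehicle. Its mean was below 5.60, the median of all probe sets, and was the only one of the 8 that was. The files give no detection call, so it is not known whether Tet1 was above background. The log2 fold change of Tet1 was -0.035 ± 0.22 (adjusted p = 0.967). The 95% confidence intervals were 69.8% to 126% of the vehicle level for Tet3, 66.4% to 126% for Tet2 and 67.5% to 141% for Tet1. The changes of Tet1 and Tet2 differed by 0.095, those of Tet1 and Tet3 by 0.06 and those of Tet2 and Tet3 by -0.035 on the log2 scale (exact permutation p = 1 for each). Each of these signs turned with 1 array left out, with ranges of -0.26 to 0.45, -0.26 to 0.38 and -0.245 to 0.175. After adjustment over the 6 pairs of paralogues compared, each p was 1.

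**Figure D2:**
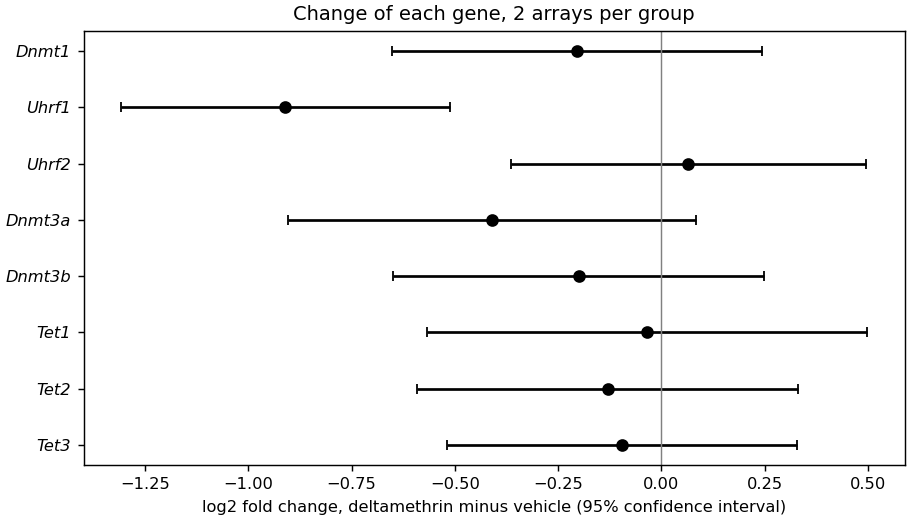
Log2 fold change of each gene (points) with its 95% confidence interval from limma (bars), deltamethrin minus vehicle, 2 arrays per group. The interval of Uhrf1 lies below 0 as a whole, and those of the other 7 genes include 0.

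Of 17 measured genes that work with UHRF1 and DNMT1, at the replication fork or elsewhere on chromatin, 0 rose, 1 fell and 16 did not pass. The median log2 fold change was -0.22, with 12 estimates below 0 and 5 above. The gene that fell was Pclaf, which encodes PAF15, a PCNA-bound protein that UHRF1 ubiquitinates to recruit DNMT1. Pclaf read 11.80 and 11.78 with deltamethrin, against 13.00 and 13.01 with vehicle. The groups lay far apart relative to their spread, and the log2 fold change was -1.215 ± 0.16 (adjusted p = 0.0480). This call was lost after quantile normalization, with robust moderation, without moderation, with the replicate number as a block and with any of the 4 arrays left out. With a mean-variance trend 3 of the 17 fell, Pclaf, Chaf1a and Hdac2 (1.38% of all probe sets fell). Of the probe sets above the median level, where 15 of the 17 genes lay, 7.06% were called with that trend in either direction. In the fit without a trend Chaf1a, a subunit of the histone chaperone CAF-1, was at -0.785 ± 0.16 (adjusted p = 0.139). The chromatin remodeller gene Hells, which opens DNA for maintenance methylation, was at -0.495 and the deacetylase gene Hdac2 at -0.43. Usp7, the deubiquitinase that stabilises UHRF1 and DNMT1, was at -0.355 ± 0.20, and Cdca7, which brings HELLS to chromatin, at -0.01 ± 0.22. The last 2 were chosen after their values were seen.

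Markers of dividing cells were lower in the same arrays. Of 16 measured genes of S phase and mitosis, 0 rose, 1 fell and 15 did not pass, and all 16 had deltamethrin arrays below the vehicle arrays (23.5% of all probe sets did). Their median log2 fold change was -0.59. Rrm2, which makes the deoxynucleotide-producing reductase active, read 13.10 and 12.99 with deltamethrin, against 14.37 and 14.29 with vehicle (log2 fold change -1.285, adjusted p = 0.0464). The call of Rrm2 was lost without moderation, with the replicate number as a block and with any of the 4 arrays left out. With a mean-variance trend 11 of the 16 fell, and without dim probe sets 3 did (Cdc6, Mki67 and Rrm2). With that trend 1.38% of all probe sets fell. Of the probe sets above the median level, where all 16 genes lay, 7.06% were called with it in either direction. Without dim probe sets 2.34% of those kept were called in either direction. In the fit over all probe sets without a trend Cdc6, which loads the replicative helicase, was at -1.60, the Ki-67 gene Mki67 at -0.945 and the cyclin gene Ccne1 at -0.765. In RNA pooled from whole cultures, fewer cells in cycle and less RNA per cell cannot be told apart. The part of the cell cycle in the Uhrf1 value was not tested.

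The change of Uhrf1 was lower than that of 13 of these 16 genes, and higher than that of the other 3. Dnmt1 had a higher fold change than 15 of the 16, and Uhrf2 and the TET genes than all 16. Against the list's mean in the same array, Uhrf1 stood at 0.15 and 0.31 with deltamethrin, against 0.46 and 0.48 with vehicle, so it was lower by 0.24 on the log2 scale. For Uhrf1 the groups of this difference did not overlap. Dnmt1 was higher by 0.47 against the same list, also with no overlap between groups. So were Dnmt3b (0.47), Tet2 (0.54), Tet3 (0.58), Tet1 (0.64) and Uhrf2 (0.74), while Dnmt3a was higher by 0.26 with overlap. The mean log2 fold change of the list was itself -0.67, so a gene without change would also stand higher against it. These differences were computed after the values were seen and carry no test. How many of all probe sets show no overlap against this list was not computed. The lack of overlap is therefore no result about these genes. Distances between genes were taken over their 4 array values, each gene centred on its mean. Among 9624 genes, those nearest to Uhrf1 were Kif20b (a mitotic kinesin, distance 0.061), Mki67 (0.062) and Grk5 (0.087), which encodes a G protein-coupled receptor kinase. Mycbp (0.089) and the kinase gene Snrk (0.11) came next. Those nearest to Uhrf2 were Elovl4 (0.0087), Usb1, Hbs1l, Pes1 and Entr1, at distances up to 0.030.

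**Figure D3:**
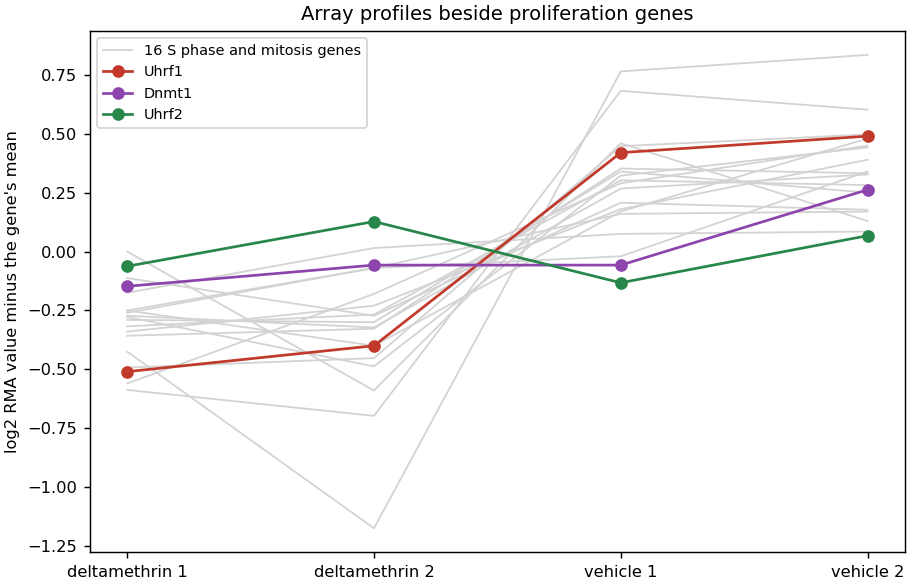
Log2 RMA value minus the gene's own mean over the 4 arrays (vertical axis) for Uhrf1, Dnmt1 and Uhrf2 (coloured) and 16 genes of S phase and mitosis (grey), deltamethrin arrays left and vehicle arrays right, with lines joining the values of a gene. Uhrf1 runs with the grey lines, Dnmt1 varies less, and the Uhrf2 groups overlap.

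Other parts of the methylation pathway held no called gene in limma. For the counts at an unadjusted p below 0.05 that follow, the share of all probe sets was 13.7%. Of 12 measured genes that give chromatin cues to the DNA methyltransferases 0 rose and 0 fell (median -0.11, 2 at an unadjusted p below 0.05). The histone demethylase gene Kdm1b, needed for maternal imprints, was highest at 0.615 ± 0.16 (adjusted p = 0.199). Zfp57, which protects imprints from demethylation, was at 0.445, Morc1 at 0.365 and Smchd1, a protein of the inactive X chromosome, at -0.45. Of 6 measured genes of methyl-CpG-binding protein families, not all of which need bind methylated sites, 0 passed, also at an unadjusted p below 0.05 (median -0.07). Among them Zbtb33 (Kaiso) was at -0.31, Mbd3 at -0.21, Mbd1 at -0.14 and Mbd4 at 0.125. The other measured family members, with a median of 0.25, were Dnmt3l, a catalytically inactive partner of DNMT3A that was dim here (0.365), and Trdmt1, a tRNA methyltransferase (0.135).

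For the removal of oxidised methylcytosine, 0 of 12 measured repair genes rose or fell in limma (median 0.085, 4 at an unadjusted p below 0.05). Gadd45a, a stress-induced gene that has been tied to active demethylation, read 9.72 and 10.06 with deltamethrin, against 8.88 and 8.95 with vehicle. The groups did not overlap, and its log2 fold change of 0.975 ± 0.19 had an adjusted p of 0.124 (it rose with a mean-variance trend and without dim probe sets). Polb, the gap-filling polymerase of base excision repair, was at 0.43, the uracil glycosylase gene Ung at -0.60 and Gadd45b at -0.46. Of 12 measured genes of the TET cofactor supply and TET partners 0 passed, also at an unadjusted p below 0.05 (median 0.10). These included Ogt, the O-GlcNAc transferase that binds TET proteins (0.36), Cxxc5 (-0.415), D2hgdh (0.41) and the mitochondrial isocitrate dehydrogenase gene Idh3a (-0.315). The cytosolic Idh1 and mitochondrial Idh2, which make the TET cosubstrate and were chosen after their values were seen, were at 0.04 and 0.135. In the supply of S-adenosylmethionine, the methyl donor, 0 of 13 passed (median 0.085, 2 at an unadjusted p below 0.05). Mat1a, the liver form of the synthetase, was at -0.815 (adjusted p = 0.169), the adenosine kinase gene Adk at -0.565, Mtap at -0.23 and Ahcyl2 at 0.325.

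Expression of germline genes that DNA methylation is known to silence, and of imprinted genes, was read as well, although methylation itself was not measured. A place on these lists does not mean that a gene was silent in this line. With vehicle the germline genes Asz1 and Sohlh2 had means of 14.2 and 12.2, and the imprinted Mest and Gnas 18.4 and 16.4. These were named after their values were seen. Of 24 germline genes 0 rose, 1 fell and 23 did not pass (median -0.07), and 17 had a mean below the median of all probe sets. The gene that fell was Dazl, an RNA-binding protein of germ cells, with 6.28 and 6.55 with deltamethrin, against 8.08 and 7.84 with vehicle (log2 fold change -1.545 ± 0.19, adjusted p = 0.0410). Its call was lost without moderation, with the replicate number as a block and with any of the 4 arrays left out. Sycp3 was at -0.385, Tuba3a at -0.435 and Tdrd1 at -0.365. Of 22 measured imprinted genes 0 passed in limma (median -0.095, 6 at an unadjusted p below 0.05, 1 higher and 5 lower). Impact, a regulator of the kinase GCN2, read 15.14 and 15.29 with deltamethrin, against 14.35 and 14.20 with vehicle (0.94 ± 0.17, adjusted p = 0.109). The paternally expressed Peg10 was at -0.93 ± 0.24 and Peg3 at -0.655 ± 0.18, and Dlk1 was at -0.475. With a mean-variance trend Impact rose, and Peg10 and Mest fell. With that trend 3.63% of all probe sets were called in either direction. Of the probe sets above the median level, where 11 of the 22 genes lay, these included, 7.06% were called.

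**Figure D4:**
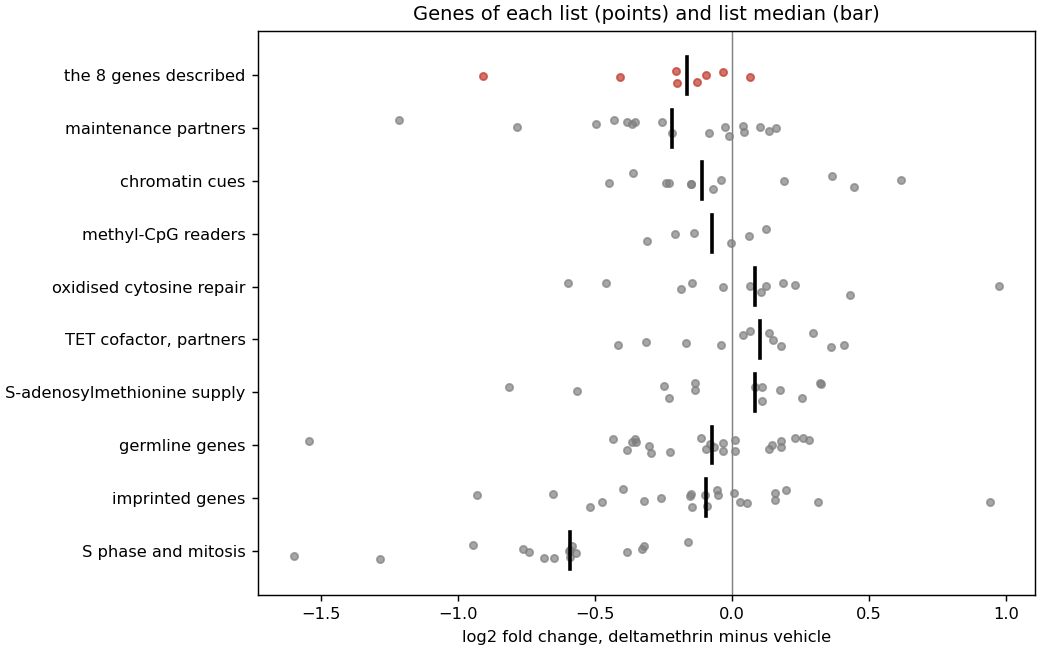
Log2 fold change (horizontal axis, deltamethrin minus vehicle) of each measured gene (points) in the 8 genes described (red) and 9 related lists (grey), with the list medians (bars). The S phase and mitosis genes all lie below 0 with a median of -0.59, and the median of the 8 genes is -0.17, with Uhrf1 the lowest at -0.91.

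The label of the line was checked against marker genes. All 11 measured neuroblastoma markers had means over the median probe set, and 19 of 20 measured markers of astrocytes, oligodendrocytes and Schwann cells, microglia and macrophages, and fibroblasts lay below it. None of the 20 was at an unadjusted p below 0.05 in limma. Of the 11 neuroblastoma markers 0 were called, and 10 estimates were below 0 (median -0.265). At an unadjusted p below 0.05 in limma, 5 were lower and 1 was higher, where 13.7% of all probe sets were past it. The deltamethrin arrays lay below the vehicle arrays for 8, as they did for 23.5% of all probe sets. Among them Isl1 was at -1.14 ± 0.17, Dbh at -1.255 ± 0.47 and Th at 0.90 ± 0.27, named after their values were seen. The part of this in the values of the 8 methylation genes was not tested. Array-to-array differences had an SD of 0.37 within the deltamethrin group and 0.33 within the vehicle group over all probe sets. Over all probe sets 79 rose and 17 fell. Over the 10 related lists, 3 of 134 measured genes fell and 0 rose, and another 18 listed genes had no probe set matched and were not analysed here.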

How the data were processed

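Gene expression was measured on 4 Affymetrix Clariom S Mouse arrays, 2 of deltamethrin-treated and 2 of vehicle-treated cells, grouped by sample title. The deposited values are log2 values, 1 per probe set and array, made by the authors. The submitters' processing notes name RMA and Transcriptome Analysis Console, with versions not given in the sources used here. That they are log2 values follows from their range. Gene names came from the platform annotation. Of the probe sets, 2634 were unnamed here.

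Deltamethrin minus vehicle was fitted in limma 3.58.1 (R 4.3.3) with lmFit and eBayes on all 22206 probe sets, with no trend and no block, giving 6.43 total degrees of freedom. Tests were two-sided, with Benjamini-Hochberg adjustment, and "rose" and "fell" mark an adjusted p below 0.05. The brightest probe set stood for a gene. Precision is limited by the number of arrays, with a median SE of 0.19. On simulated data of this comparison with 22206 probe sets, calls were made for 4% of 100 probe sets with a 2-fold change and for 86% of 100 with a 4-fold change. The simulated variances did not depend on the level, and the fit had no trend. No list was given a set test. From each list the called genes were named, then those of smallest p up to 4. The members and lists were chosen with earlier results of these data known.

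Alternatives were a mean-variance trend, robust moderation, no moderation, the replicate number as a block, leaving out probe sets below the 40th percentile of mean level, quantile, cyclic loess and median scaling, array weights, 1 probe set per gene, and each array left out in turn. Promoters came from RefSeq (GRCm38.p6). Batches were not labelled, and a batch effect cannot be told apart from the treatment.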

Additional observations from a re-analysis of the deposited data

How the results depend on the processing

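The estimate of Uhrf1 stayed between -0.965 and -0.855 in all settings tried. Called members numbered 0 in the fit described, and 1 (Uhrf1) with a mean-variance trend and 1 without dim probe sets. Over all probe sets 96 were called; the count was 806 with a mean-variance trend, 312 without dim probe sets and 0 without moderation. Of the genes on related lists 3 were called, against 19 with that trend, 7 without dim probe sets and 0 without moderation. With each array left out in turn, called probe sets and called list genes numbered 0 to 0. The lone array is then assumed to vary like the other group. With the replicate number as a block, called probe sets, called members and called list genes were 0, with 3221 probe sets at an unadjusted p below 0.05. Same-numbered arrays deviated together only weakly (r = 0.13 across probe sets, which are not independent), and the labels do not say that the numbers pair samples. The signs of the Tet1, Tet2, Tet3 and Uhrf2 estimates turned with 1 array left out, with ranges of -0.23 to 0.16, -0.295 to 0.035, -0.22 to 0.03 and -0.035 to 0.165. The difference between the changes of Uhrf1 and Uhrf2 ranged from -1.04 to -0.91. With 2 arrays per group, a simulated 2-fold change was rarely past the threshold in the fit without a trend.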
